A study of Mus musculus with 18 samples.

Results

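Apical resection at postnatal day 10 (P10) was followed here in sorted cardiac fibroblasts by comparing 3 P10 resected +3 days libraries with 3 P10 baseline libraries across all genes, 6 of the 18 bulk RNA-sequencing libraries in the series. The members were taken from the sample labels alone. All 18 libraries came from C57BL/6J pups with 1 copy each of Tcf21-MerCreMer and the Rosa-mTmG reporter. The pups received tamoxifen at P1, so that cells expressing Tcf21 at that time, and their descendants, carried membrane GFP. Atria and valves were cut away, the apical portion of each ventricle pair was dissociated, and GFP+ cells were collected by flow cytometry. P10 baseline pups had no operation and were collected at P10. P10 resected +3 days pups had the apex of the heart cut off through a thoracotomy under hypothermia at P10, with buprenorphine for pain, and were collected 3 days later, at P13. P10 sham +3 days pups had the heart exposed at P10 and put back uncut, and were also collected at P13. P2 baseline and P2 resected +3 days are the same designs begun at P2.

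The resected pups were 3 days older than the baseline pups and had been operated on, so later growth, surgery and loss of the apex cannot be told apart in this comparison. The 3 P10 sham +3 days libraries are shown beside it because they share the growth and the surgery. Many pups operated on at P10 did not survive, and the libraries come from survivors. Sex and the number of pups per library are not given in the sources used here. GFP marks the Tcf21 lineage and does not mark every fibroblast. Nothing in the labels says that the replicates are separate pups or litters, so p-values measure only the spread between these libraries.

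Cardiac fibroblasts make and maintain the collagen matrix of the heart and respond to injury by dividing, by secreting matrix, and by releasing cytokines and protease inhibitors. Acute-phase proteins such as serum amyloid A and haptoglobin are secreted in quantity during inflammation, by the liver and also by stromal cells. Interferons act through their receptors on a shared set of antiviral genes and on the genes that load peptides onto MHC class I.

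The promoter sequences of 5 genes that hold the response element core defined below are shown. Of these, 4 are on the interferon-stimulated list, of which Oas1a was the member called, and Saa3 was also called. They do not stand for the whole list: the window of Oasl2, another member, held no match to any pattern marked here. Isg15, Ifit1 and Gbp2 were not called. Each is the 150 bases before the annotated start from RefSeq (GRCm38.p6), read in the direction of the gene. Capitals mark matches on either strand to GAAANNGAAA, the core of the interferon-stimulated response element, to TTCNNNGAA, a STAT site, or to TGANTCA, an AP-1 site.
Oas1a, chr5:120907526-120907675, minus strand: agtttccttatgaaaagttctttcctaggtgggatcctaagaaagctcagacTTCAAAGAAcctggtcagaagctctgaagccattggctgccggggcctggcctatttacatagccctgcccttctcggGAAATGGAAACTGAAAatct
Isg15, chr4:156200819-156200968, minus strand: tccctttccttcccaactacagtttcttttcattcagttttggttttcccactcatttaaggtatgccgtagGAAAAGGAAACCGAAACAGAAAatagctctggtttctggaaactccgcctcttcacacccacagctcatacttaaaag
Ifit1, chr19:34640739-34640888, plus strand: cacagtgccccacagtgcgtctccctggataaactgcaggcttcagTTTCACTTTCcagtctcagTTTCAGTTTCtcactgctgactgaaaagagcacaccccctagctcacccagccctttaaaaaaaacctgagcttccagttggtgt
Gbp2, chr3:142620513-142620662, plus strand: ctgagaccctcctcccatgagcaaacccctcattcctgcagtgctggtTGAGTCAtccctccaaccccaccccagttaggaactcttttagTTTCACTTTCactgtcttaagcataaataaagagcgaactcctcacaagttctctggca
Saa3, chr7:46715677-46715826, minus strand: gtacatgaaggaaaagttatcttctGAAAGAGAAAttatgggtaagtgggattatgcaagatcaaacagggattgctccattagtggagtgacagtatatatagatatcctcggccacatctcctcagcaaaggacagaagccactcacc
Of the 32851 windows of this length, 1.59% held the response element core, 4.09% the STAT site and 4.24% the AP-1 site. RefSeq windows matched 16 of the 22 genes of the interferon-stimulated list, and 8 of these held the response element core, 2 the STAT site and 4 the AP-1 site. Of the 16 genes called below, 12 had a window, of which 2, those of Oas1a and Saa3, held the response element core and 2 held a STAT site. Matches can overlap: the capitals of Oas1a near the start hold 2 overlapping copies of the core, and those of Isg15 hold 3. A match describes these letters only.

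The 6 libraries held between 10462737 and 20412111 counts. Tcf21 itself stood at 232, 344 and 376 CPM (counts scaled to the same library total) in P10 baseline replicates 1, 2 and 3 and at 297, 247 and 251 CPM in P10 resected replicates 1, 2 and 3, and Pdgfra, a receptor of cardiac fibroblasts, at 836, 415 and 336 CPM and 484, 613 and 517 CPM. The groups overlapped for both genes. P10 baseline replicate 1 stood apart: its log2 CPM correlated across genes at 0.865 to 0.898 with the other P10 libraries, while the other baseline replicates correlated with each other at 0.935. Of all libraries in the series, the one most like P10 baseline replicate 1 was P2 resected replicate 3. Xist, which is transcribed from the inactive X chromosome, was at 153, 14.2 and 2.57 CPM in the baseline libraries and had no count in any resected library, and 4 Y-linked genes summed to 0, 20.7 and 47.4 CPM at baseline and 151, 100.00 and 166 CPM after resection. P10 baseline replicate 2 held 265 Xist and 386 Y-linked counts, and replicate 3 held 26 and 480, so each held both kinds of transcript. Sex-linked transcripts thus differed between the groups, and a fit with the Y-linked level as a covariate is given where it bears on a result.

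Of 16170 genes tested, 15 were higher in P10 resected +3 days than in P10 baseline (0.0928%) and 1 was lower (0.00618%), at an adjusted p under 0.05 in the quasi-likelihood test of edgeR (Benjamini-Hochberg). The genes called higher were acute-phase and serine protease inhibitor genes (Saa3, Hp, Serpina3n, Serpina3g), genes of matrix and protein turnover (Timp1, Tgm2, Lgmn), the cytokine Il33, the antiviral gene Oas1a, the surface and membrane genes Ly6a, Tmem176a and Emb, Plac8, and the metabolic genes Angptl4 and Mgst1. The gene called lower was Dlk1. For 12 of these 16 genes the highest of the 9 P10 libraries was P10 resected replicate 3. All 16 were also called by DESeq2, which called 149 genes higher (0.921%) and 26 lower (0.161%). At an unadjusted p under 0.05 edgeR had 720 genes higher (4.45%) and 328 lower (2.03%). Resected and baseline libraries did not overlap for 1250 genes with resected higher (7.73%) and for 672 with resected lower (4.16%).

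The number of calls changed with single libraries. Without P10 resected replicate 3 edgeR called 3 genes, Timp1, Angptl4 and Tmem176a. Without P10 baseline replicate 1, 2 or 3 it called 3, 0 and 1 genes, and without P10 resected replicate 1 or 2 it called 26 and 58. A fit of the 6 compared libraries alone called 0 genes, and so did the fit without both P10 baseline replicate 1 and P10 resected replicate 3. With the Y-linked level as a covariate, 2 genes were called, Timp1 (edgeR adjusted p = 0.00889) and Angptl4 (edgeR adjusted p = 0.0302). In that fit every called gene kept its sign. The log2 fold change was -1.95 for Dlk1, 9.92 for Hp and 1.53 for Angptl4, beside -2.02, 10.6 and 1.5 without the covariate. The Y-linked level did not overlap between resected and baseline libraries, so the covariate is partly confounded with the groups. The part of sex in the lost calls was not tested.

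**Figure D1:**
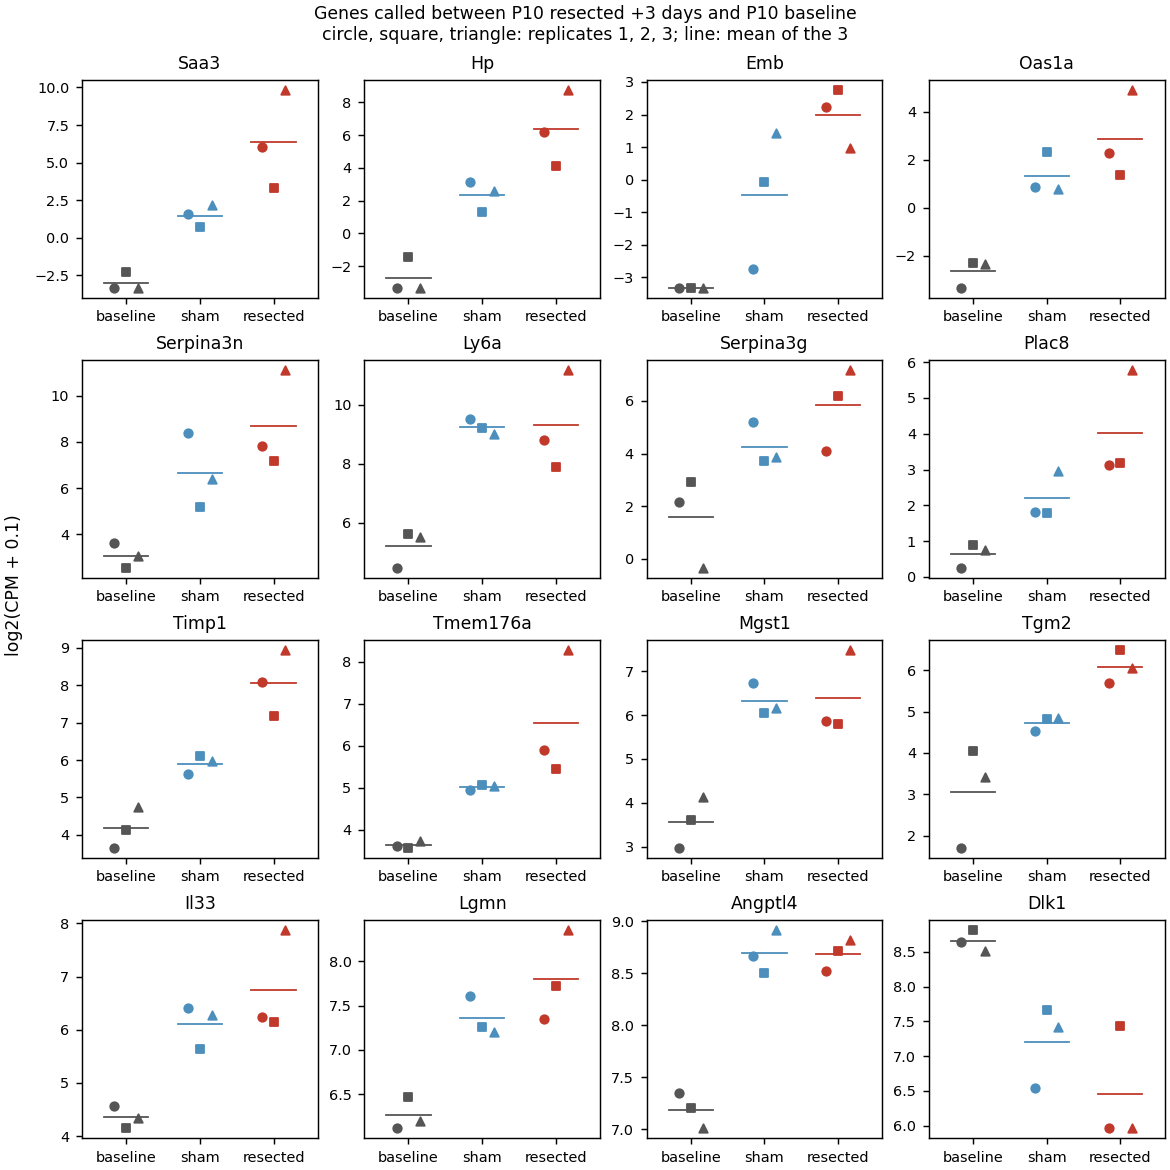
Each panel plots log2(CPM + 0.1) of 1 of the 16 called genes in the 3 P10 baseline, 3 P10 sham and 3 P10 resected libraries, with a symbol for each replicate and a line at the mean of the 3. Saa3 in the resected libraries runs from 9.72 to 919 CPM with replicate 3 highest, while Angptl4 lies at the same height in sham and resected libraries and Dlk1 is the gene that is lower.

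Among the acute-phase genes, Saa3, a serum amyloid A (chromosome 7, positions 46711998 to 46715700 on GRCm38), was at 0, 0.107 and 0 CPM in the baseline libraries and 65.8, 9.72 and 919 CPM in the resected libraries. Replicate 3 was far higher than the others, and replicates 1 and 2 also lay above every baseline library. With 2 counts in the baseline group against 13306, the ratio of the groups was 6190 with an exact 95% counting interval of 1710 to 51100, which covers counting error only (edgeR adjusted p = 0.0483). Without replicate 3 Saa3 was not called (edgeR adjusted p = 0.25). The sham libraries held 2.85, 1.55 and 4.34 CPM, below every resected library and above every baseline library. Its promoter, printed above, holds 1 match to the response element core.

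Hp encodes haptoglobin, which binds free haemoglobin. It was at 0, 0.268 and 0 CPM at baseline and 72.3, 17.5 and 435 CPM after resection, again with replicate 3 highest and no overlap (log2 fold change 10.59 ± 1.76 SE, edgeR adjusted p = 0.034). Without replicate 3 its log2 fold change was 8.65 with an edgeR adjusted p of 0.177, and over the 6 fits without 1 library it ran from 8.65 to 14.6. The 14.6 came without baseline replicate 2, the only baseline library with Hp counts, so that value depends on the fit's prior count. Sham libraries held 8.69, 2.39 and 5.89 CPM of Hp. Serpina3n, a secreted serine protease inhibitor on chromosome 12, positions 104406729 to 104414329, was at 12.01, 5.73 and 8.19 CPM and 224, 144 and 2218 CPM (log2 fold change 6.64 ± 1.23 SE, edgeR adjusted p = 0.0483). Without replicate 3 its log2 fold change was 4.41 with an edgeR adjusted p of 0.25. In the sham libraries Serpina3n reached 333, 35.7 and 83.4 CPM, so sham replicate 1 exceeded resected replicates 1 and 2. Serpina3g, of the same family and chromosome, is an intracellular serpin that was at 4.37, 7.54 and 0.691 CPM and 17.1, 73.2 and 144 CPM (log2 fold change 4.19 ± 0.78 SE, edgeR adjusted p = 0.0483). Sham libraries held 36.2, 12.9 and 14.4 CPM of Serpina3g. Of the 75-base stretches in Serpina3g transcripts, 7.69% also occur in other genes, led by Serpina3h and Serpina3i, and reads from these stretches would not be counted for any of the copies.

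Timp1, a secreted inhibitor of matrix metalloproteinases (chromosome X, positions 20870166 to 20874735), had the smallest adjusted p of the comparison. It was at 12.4, 17.2 and 26.7 CPM at baseline and 272, 146 and 493 CPM after resection, and every resected library exceeded every sham library, which held 49.5, 68.5 and 62.8 CPM. Its log2 fold change against baseline was 4.02 ± 0.49 SE (edgeR adjusted p = 0.00379), and 3.48 with an edgeR adjusted p of 0.00763 without resected replicate 3. The call was lost without baseline replicate 2, among the 6 fits that each left out 1 library. Against sham the log2 difference was 2.33 ± 0.45 SE, which edgeR did not call (adjusted p = 0.626). Tgm2, a transglutaminase that crosslinks proteins, was at 3.15, 16.5 and 10.6 CPM and 51.2, 89.6 and 66.3 CPM, with resected replicate 2 highest (log2 fold change 2.77 ± 0.50 SE, edgeR adjusted p = 0.047). Sham libraries held 22.9, 28 and 28.7 CPM of Tgm2. Exons of other genes share 21.8% of the exon bases of Tgm2. Lgmn, a lysosomal cysteine protease, was at 69.5, 88.3 and 73.4 CPM and 162, 210.04 and 326 CPM (log2 fold change 1.59 ± 0.27 SE, edgeR adjusted p = 0.034). Sham libraries held 196, 153 and 147 CPM of Lgmn, within the range of the resected libraries or below it.

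Il33 encodes an alarmin that is stored in the nucleus of stromal cells and released on damage. It was at 23.7, 17.7 and 20.03 CPM at baseline and 75.5, 70.4 and 235 CPM after resection, a log2 fold change of 2.63 ± 0.46 SE (edgeR adjusted p = 0.0458), and of 1.83 with an edgeR adjusted p of 0.225 without replicate 3. Sham libraries held 84.9, 49.9 and 77.3 CPM and covered the range of resected replicates 1 and 2. Ly6a, which encodes the surface protein Sca-1, was at 22.1, 48.6 and 45.6 CPM and 449.5, 238 and 2319.99 CPM (log2 fold change 4.69 ± 0.81 SE, edgeR adjusted p = 0.0428), with 725, 587 and 514 CPM after sham surgery. All 3 sham libraries thus lay above resected replicates 1 and 2 and below replicate 3.

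Tmem176a, a membrane protein gene, was at 12.2, 11.8 and 13.3 CPM and 59.9, 43.6 and 312 CPM. Its log2 fold change was 3.48 ± 0.53 SE (edgeR adjusted p = 0.023), and 2.06 with an edgeR adjusted p of 0.00763 without replicate 3, so the smaller difference in the other libraries still passed. Sham libraries lay between the groups at 30.6, 33.4 and 33.1 CPM. Plac8 was at 1.09, 1.77 and 1.58 CPM and 8.599, 8.96 and 55 CPM (log2 fold change 4.03 ± 0.74 SE, edgeR adjusted p = 0.0483), and 2.56 with an edgeR adjusted p of 0.309 without replicate 3. Sham libraries held 3.45, 3.36 and 7.69 CPM of Plac8. Emb, named after its values were seen, encodes embigin, a membrane glycoprotein of the immunoglobulin superfamily. It had no count in the baseline libraries and stood at 4.62, 6.67 and 1.86 CPM after resection, at least 68.8-fold higher than a floor of 3 counts over the baseline group (edgeR adjusted p = 0.0483). Its sham libraries held 0.0499, 0.841 and 2.59 CPM.

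Angptl4, a secreted inhibitor of lipoprotein lipase and a target of fatty acid-sensing nuclear receptors, was the most even of the called genes. It was at 163, 148 and 129 CPM at baseline and 369, 422 and 452 CPM after resection (log2 fold change 1.5 ± 0.20 SE, edgeR adjusted p = 0.00622). The sham libraries held 405, 362 and 483 CPM, with a log2 fold change over baseline of 1.51 ± 0.20 SE (edgeR adjusted p = 0.0115). It was the single gene called between P10 sham and P10 baseline (0.00618%). edgeR called no gene there without P10 baseline replicate 2, P10 baseline replicate 3 or P10 sham replicate 3, and the fit of those groups alone called 1 gene, which was not Angptl4. Resected and sham libraries differed by -0.01 ± 0.20 SE on the log2 scale. Mgst1, a microsomal glutathione transferase, was at 7.77, 12.1 and 17.4 CPM and 58.4, 55.5 and 178 CPM (log2 fold change 2.98 ± 0.50 SE, edgeR adjusted p = 0.034), with 106, 66.2 and 71.1 CPM after sham surgery, which is above resected replicates 1 and 2.

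Dlk1, an imprinted gene for a membrane ligand related to Notch ligands and abundant in fetal stroma (chromosome 12, positions 109452823 to 109463336), was at 398, 449 and 365 CPM at baseline and 62.3, 173 and 62.4 CPM after resection. Every resected library lay below every baseline library, and Dlk1 fell by 2.02 ± 0.36 SE on the log2 scale (edgeR adjusted p = 0.047). The sham libraries held 92.9, 202 and 171 CPM and overlapped the resected range. The call was lost in 5 of the 6 fits that each left out 1 library, and was kept without resected replicate 2.

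**Figure D2:**
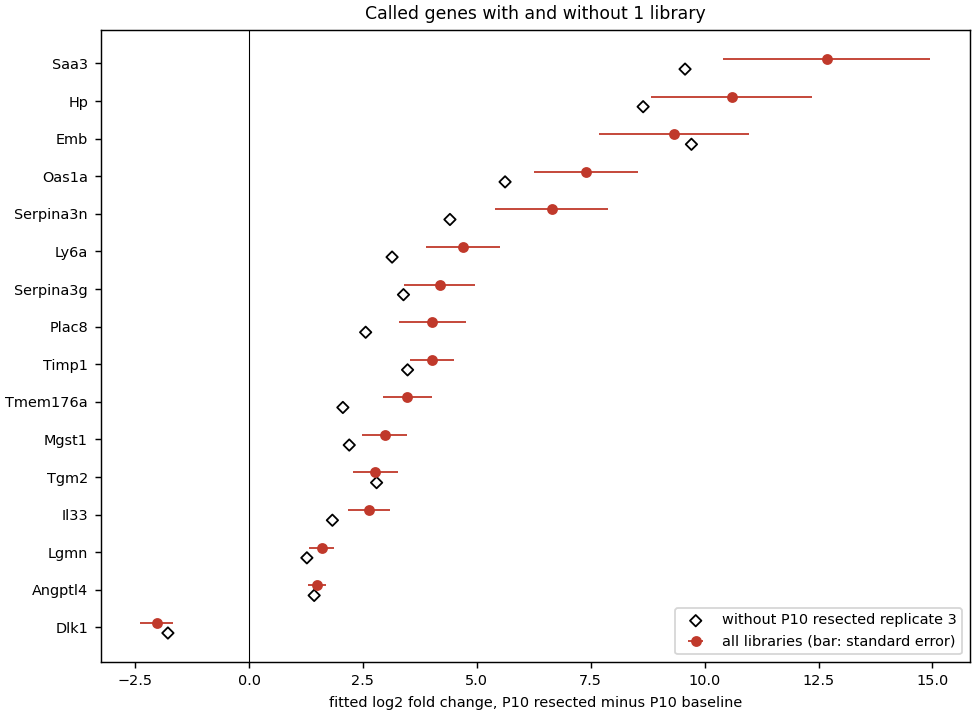
The fitted log2 fold change of each called gene, P10 resected minus P10 baseline, is plotted for all libraries (filled circles, bars of 1 standard error) and without P10 resected replicate 3 (open diamonds, no bars). The value for Ly6a goes from 4.69 to 3.14 and that for Tgm2 from 2.77 to 2.8, and no gene changes sign. The values of Saa3, Emb and Oas1a, with 3 or fewer baseline counts, depend on the fit's prior count and are not bounds.

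The interferon-stimulated genes had the highest median of the 29 gene lists, which leave out the cell type markers. All 22 of the list's genes were tested and 1, Oas1a, was called higher, 11 were called higher by DESeq2 and 19 had an unadjusted p under 0.05 with resected higher, against the 0.0928%, 0.921% and 4.45% of all genes given above. The median log2 fold change of the list was 2.64, beside -0.01 over all genes tested. P10 resected replicate 3 was the highest of the 6 libraries for 21 of the 22 genes, beside 17.2% of all genes. Without that library the median was 1.18, below those of the complement list (1.72) and the chemokine and cytokine list (1.38). The summed level of the list was 301, 309 and 345 CPM at baseline, 605, 525 and 531 CPM after sham surgery and 701, 443 and 2697 CPM after resection, so all sham and resected libraries lay above all baseline libraries. The share of counts from mitochondrial genes was 0.697, 0.253 and 0.198% in the baseline libraries, 0.699, 0.66 and 0.442% in the sham libraries and 0.728, 0.866 and 1.05% in the resected libraries, also highest in resected replicate 3 among the resected libraries and without overlap between resected and baseline, and its part in the result was not tested.

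Oas1a, an oligoadenylate synthetase that senses double-stranded RNA (chromosome 5, positions 120896256 to 120907521), was at 0, 0.107 and 0.0987 CPM at baseline and 4.77, 2.48 and 29.9 CPM after resection. The baseline group held 3 counts and the resected group 520, a ratio of 161 (exact 95% counting interval 54.8 to 784, edgeR adjusted p = 0.023). Without resected replicate 3 Oas1a was not called (log2 fold change 5.62, edgeR adjusted p = 0.127). Sham libraries held 1.698, 4.85 and 1.603 CPM and overlapped the resected libraries. Oas1a shares 47.6% of its 75-base stretches with Oas1g, and reads from these stretches would be counted for neither gene. Usp18, which removes Isg15 from proteins and damps interferon signalling, was at 2.97, 3.48 and 6.02 CPM and 15.4, 16.02 and 127 CPM (log2 fold change 3.67 ± 0.72 SE, edgeR adjusted p = 0.0641, not called). Isg15, the ubiquitin-like modifier, was at 6.13, 2.35 and 2.17 CPM and 13.5, 10.1 and 134 CPM (log2 fold change 3.88 ± 0.84 SE, edgeR adjusted p = 0.0895, not called). Its promoter holds the longest run of response element cores of the 5 printed above. For both genes resected replicates 1 and 2 lay close together above baseline and replicate 3 lay far above them.

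The same genes were at other levels in younger pups. Usp18 was at 57.2, 88.7 and 50.5 CPM at P2 baseline and 7.62, 10.2 and 6.22 CPM in P2 resected +3 days, the opposite order to P10. P2 sham +3 days libraries held 2.51, 7.98 and 5.03 CPM and overlapped the P2 resected libraries. Its change from baseline to 3 days after resection was -3.03 ± 0.69 SE at P2 and 3.67 ± 0.72 SE at P10 on the log2 scale, and the difference of the changes, 6.7 ± 1.00 SE, was called (edgeR adjusted p = 0.0271). Of all genes tested, 6 had a higher change at P10 (0.0371%) and 3 a lower one (0.0186%). Oas1a, Usp18, Isg15, Oasl2 and Rtp4, all on the interferon-stimulated list, were among those with a higher change. Isg15 was at 51.6, 77.8 and 51.97 CPM at P2 baseline and 11.7, 9.66 and 5.84 CPM in P2 resected +3 days (difference 6.61 ± 1.16 SE, edgeR adjusted p = 0.042). The summed level of the list was 1088, 1648 and 1010.1 CPM at P2 baseline, 472, 474 and 370.3 CPM in P2 sham and 442, 347 and 317 CPM in P2 resected libraries, so sham and resected libraries both lay below every baseline library. Over the list the median change was -1.98 at P2, beside 0.01 over all genes tested. None of these 5 calls held with the Y-linked covariate (edgeR adjusted p from 0.0999 to 0.197), and all 5 were lost when any 1 P10 baseline library was left out. Each of the 5 was kept in 2 to 4 of the 12 fits that left out 1 library of the 4 groups.

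**Figure D3:**
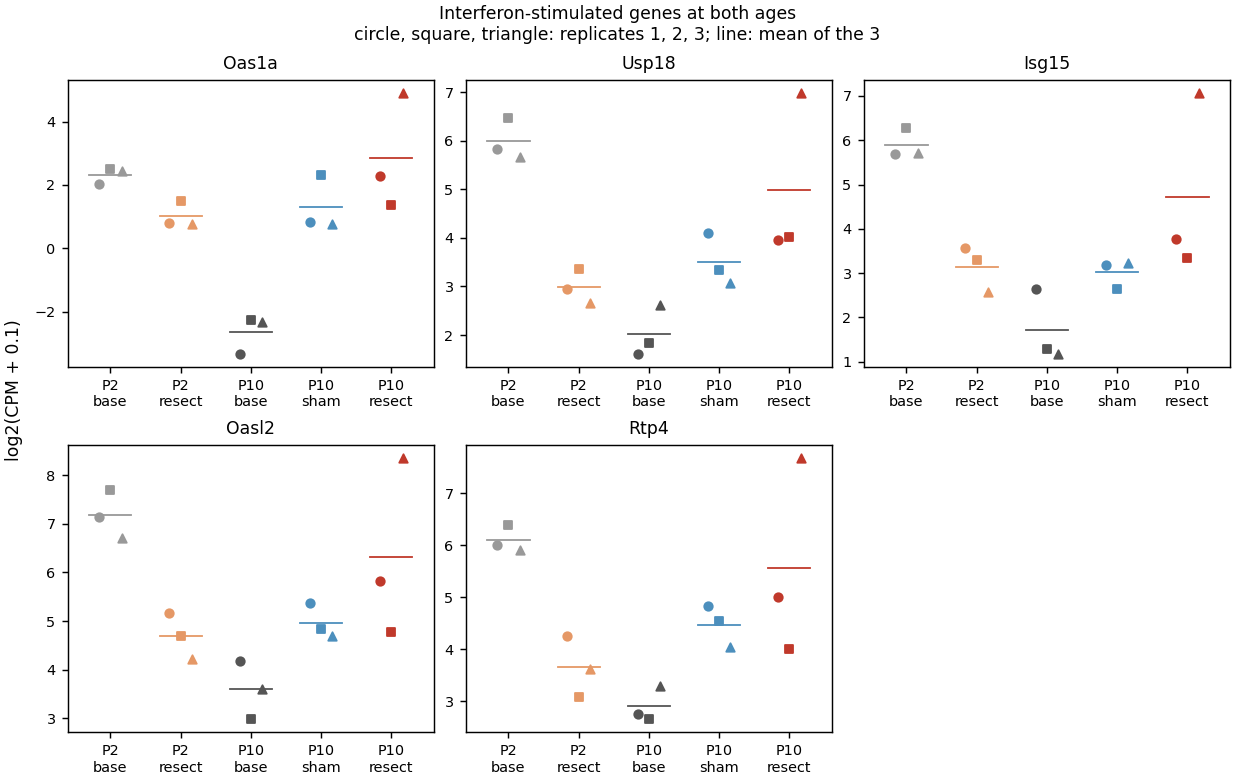
Each panel plots log2(CPM + 0.1) of 1 of 5 interferon-stimulated genes whose change differed between the ages, in P2 baseline, P2 resected, P10 baseline, P10 sham and P10 resected libraries, with a symbol for each replicate and a line at the mean of the 3. In each panel every P2 baseline library lies above every P2 resected library, and every P10 baseline library lies below every P10 resected library, among which replicate 3 (triangle) is highest.

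The 3 genes with a lower change at P10 were Vtn, Pamr1 and Olfr558. Vtn encodes the adhesive glycoprotein vitronectin and is also on the mural cell marker list. It was at 85.5, 161 and 167 CPM at P10 baseline and 70.2, 106 and 82.7 CPM in P10 resected libraries, while it was at 2.35, 0.465 and 0.0609 CPM at P2 baseline and 14.9, 22.05 and 28.8 CPM in P2 resected libraries (difference -5.14 ± 0.83 SE, edgeR adjusted p = 0.0271). Pamr1 was at 319.6, 402 and 429 CPM and 258, 330.2 and 244 CPM at P10, and at 46.5, 46.5 and 74.2 CPM and 191, 133 and 165 CPM at P2 (difference -2.02 ± 0.33 SE, edgeR adjusted p = 0.0271). Olfr558, an olfactory receptor gene, was at 27.7, 25.5 and 11.6 CPM and 4.27, 13.4 and 12.8 CPM at P10 and at 0.598, 0.419 and 0 CPM and 11.1, 8.67 and 6.28 CPM at P2 (difference -5.7 ± 0.97 SE, edgeR adjusted p = 0.0334). For all 3 genes every P2 resected library lay above every P2 baseline library. Over the mural cell marker list, which includes Vtn, the median log2 change was 0.84 at P2 and -0.47 at P10. The part of mural cells in the Vtn values was not tested. Vtn and Pamr1 were the 2 genes called between P2 resected +3 days and P2 baseline (0.0124%), both higher after resection. In the fit of the P2 resected and P2 baseline libraries alone edgeR called 4 genes and neither was among them, and it called no gene without P2 baseline replicate 2 or without any 1 P2 resected library. The Vtn, Pamr1 and Olfr558 differences were kept in 3, 2 and 2 of the 12 fits without 1 library, and none was called with the Y-linked covariate (edgeR adjusted p = 0.0953, 0.0999 and 0.163).

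Complement genes, which encode the plasma proteins that mark and lyse targets and their regulators, had a median log2 fold change of 2.36. None of 13 tested members was called by edgeR, 8 were called higher by DESeq2, 9 had an unadjusted p under 0.05, and resected and baseline libraries did not overlap for 10, each with resected higher, beside 0.921%, 4.45% and 7.73% of all genes. Resected replicate 3 was the highest library for 10 of the 13, and without it the median was 1.72. The central component C3 was at 3.64, 4.28 and 0 CPM at baseline, 135, 34.9 and 51.9 CPM after sham surgery and 216, 69.6 and 1168 CPM after resection (log2 fold change 7.46 ± 1.46 SE, edgeR adjusted p = 0.0641, DESeq2 adjusted p = 1.63e-05), and 5.69 with an edgeR adjusted p of 0.309 without resected replicate 3. C4b was at 3.64, 2.14 and 0.0987 CPM, 47.2, 23.8 and 38.1 CPM and 26.2, 6.86 and 110.2 CPM in the same order (log2 fold change 4.56 ± 0.96 SE, edgeR adjusted p = 0.0775), and 3.03 with an edgeR adjusted p of 0.684 without resected replicate 3. For C4b the sham libraries exceeded resected replicate 2 and reached or passed replicate 1 in all but 1 case. The median of the list in sham minus baseline was 1.96, and both medians use the same baseline libraries.

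The MHC class I presentation list had a median of 1.6, with 0 of 12 called by edgeR, 7 by DESeq2 and 10 at an unadjusted p under 0.05, all higher, beside 0.0928%, 0.921% and 4.45% of all genes. H2-D1, a classical heavy chain, was at 146, 212 and 214 CPM at baseline and 347, 371 and 858 CPM after resection (log2 fold change 1.46 ± 0.32 SE, edgeR adjusted p = 0.0855, DESeq2 adjusted p = 0.00152), with 356, 437 and 431 CPM after sham surgery. H2-T23, a non-classical heavy chain, was at 15.9, 16 and 13.8 CPM and 45.2, 38.8 and 292 CPM (log2 fold change 3.04 ± 0.64 SE, edgeR adjusted p = 0.0763), and DESeq2 gave it no adjusted p. Without resected replicate 3 its log2 fold change was 1.46 with an edgeR adjusted p of 0.783, and the median of the list was 0.92. The chemokine and cytokine list had a median of 1.86, 1 of 24 called by edgeR (Il33), 4 by DESeq2 and 11 at an unadjusted p under 0.05, all higher and set against the same shares of all genes, and without replicate 3 its median was 1.38.

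The matrix lists had medians between -0.11 and 0.17. The fibrillar collagen list had a median log2 fold change of 0.13, basement membrane -0.09, other collagen 0.07, collagen folding, processing and crosslinking 0.15, elastic fibre and microfibril -0.11, proteoglycan and hyaluronan 0.17, matricellular and adhesive glycoprotein -0.06, and matrix protease and inhibitor 0.07. Without P10 baseline replicate 1 the medians were 0.64 for proteoglycan and hyaluronan, 0.43 for other collagen, 0.30 for basement membrane and 0.29 for matricellular and adhesive glycoprotein genes, beside 0.09 over all genes. They were 0.24 for fibrillar collagen and 0.20 for matrix protease and inhibitor genes. Without resected replicate 3 the matrix protease and inhibitor median was -0.02 and the matricellular median 0.05, both of the opposite sign to the fit of all libraries. Across the 8 lists edgeR called 2 members, Tgm2 and Timp1, both higher (0.0928% of all genes were called higher). DESeq2 called 3 of 24 matricellular genes higher and 1 lower, 2 of 25 protease and inhibitor genes higher, and 1 higher each of 26 folding and 17 proteoglycan genes, beside 0.921% higher and 0.161% lower of all genes. Of the 24 matricellular genes, 5 had an unadjusted p under 0.05 with resected higher, beside 4.45% of all genes. The contractile myofibroblast list had a median of -0.14 with 0 of 19 called and 0 at an unadjusted p under 0.05 by edgeR, and 0 called by DESeq2. Its median was 0.04 without resected replicate 3, of the opposite sign, and -0.06 without P10 baseline replicate 1. Tagln, an actin-binding protein of contractile cells, was at 7.22, 5.67 and 3.95 CPM and 12.1, 9.66 and 5.904 CPM, with overlapping groups, and 67.9% of its exon bases lie in exons of other genes.

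Some matrix genes had separate groups without passing edgeR's threshold. Ccn2, a matricellular protein induced by TGF-beta and stretch, was at 275, 338 and 244 CPM at baseline, 273, 315 and 253 CPM after sham surgery and 774, 622 and 842 CPM after resection, with every resected library above every library of the other 2 groups. Its log2 difference was 1.38 ± 0.34 SE against baseline (edgeR adjusted p = 0.174, DESeq2 adjusted p = 0.0109) and 1.41 ± 0.34 SE against sham (edgeR adjusted p = 0.626). Exons of another gene cover 23.2% of its exon bases. Mfap2, a microfibril protein, was at 618, 876 and 1116 CPM and 415, 585 and 545 CPM, with resected libraries lower and no overlap (edgeR adjusted p = 0.46). Pcolce2, an enhancer of procollagen processing, was at 114, 124 and 156 CPM at baseline and 251, 207 and 209 CPM after resection (edgeR adjusted p = 0.54). Thbd, which encodes thrombomodulin, was at 166, 170.3 and 161 CPM and 206, 222 and 234 CPM (edgeR adjusted p = 0.881), and the groups did not overlap for either gene. Cilp, a matrix protein of cartilage and fibrotic heart, was at 169, 158 and 122 CPM and 159.8, 252 and 185 CPM and its groups overlapped.

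Spp1, which encodes the secreted phosphoprotein osteopontin, was highest in resected replicate 2. It had no count at baseline and was at 108, 212 and 26.3 CPM after resection, at least 1810-fold higher than the floor of 3 counts over the baseline group (edgeR adjusted p = 0.0641, DESeq2 adjusted p = 1.46e-05). Sham libraries held 0.2997, 1.75 and 0 CPM. Replicate 3 was the lowest resected library. The summed macrophage markers, likewise highest in resected replicate 2 and lowest in resected replicate 3, were at 19.05, 105 and 250.4 CPM at baseline, 105, 398 and 319 CPM after sham surgery and 495, 1153 and 81.96 CPM after resection. All 15 macrophage markers were tested, 5 had an unadjusted p under 0.05 with resected higher, beside 4.45% of all genes, and none was called. Cd163 was the 1 marker at 0 in every baseline library. The part of these cells in the Spp1 values was not tested. In bulk libraries a change in the number of cells of a type and a change in RNA per cell cannot be told apart.

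The other marker lists give the rest of the sorted mixture. Epicardial and mesothelial markers summed to 0, 2.19 and 3.26 CPM at baseline and 57.7, 11.1 and 3.96 CPM after resection, highest in replicate 1, and 6 of 9 markers had no count in any baseline library. Neutrophil and lymphocyte markers summed to 0, 0.642 and 3.16 CPM and 12.2, 4.13 and 10.9 CPM, with 6 of 10 at 0 in every baseline library and 4 of 10 at 0 in every resected library. Erythroid markers summed to 46.8, 158 and 139 CPM and 479, 295 and 84.5 CPM, endothelial markers to 388, 308 and 309 CPM and 481, 307 and 347 CPM, cardiomyocyte markers to 753, 562 and 726 CPM and 762, 464 and 257 CPM, and mural cell markers to 1943, 1482 and 1170.4 CPM and 942, 1429.7 and 968 CPM. Schwann cell markers summed to 44.8, 5.78 and 4.14 CPM and 24.1, 17.1 and 19.7 CPM. Resected replicate 3, the highest library for the acute-phase and interferon-stimulated genes, was the lowest resected library for macrophage, mesothelial, cardiomyocyte and erythroid markers. The list of fibroblast identity genes summed to 9385, 13172 and 13355 CPM at baseline, 23834, 19631 and 21459.6 CPM after sham surgery and 18714, 17229.8 and 21209.8 CPM after resection, with 1 of 20 called higher (Ly6a), beside 0.0928% of all genes, and a median log2 fold change of 0.06. That median was 0.37 without P10 baseline replicate 1 and 0.16 without resected replicate 3.

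**Figure D4:**
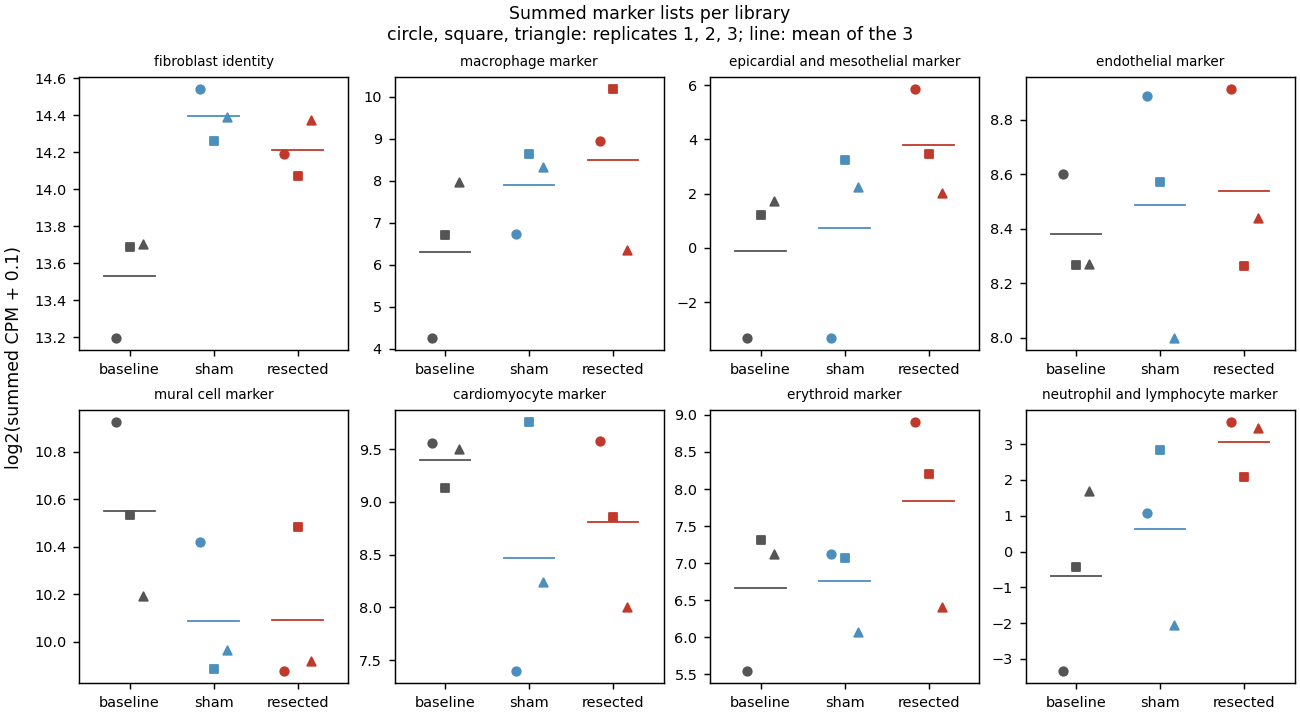
Each panel plots log2 of the summed CPM + 0.1 of 1 marker list in the 3 P10 baseline, 3 P10 sham and 3 P10 resected libraries, with a symbol for each replicate and a line at the mean of the 3. Macrophage markers reach 1153 CPM in resected replicate 2 and 81.96 CPM in resected replicate 3, and the panels have different axis ranges.

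The S phase list had a median log2 fold change of 0.09 with 0 of 43 called by edgeR or DESeq2 and 1 at an unadjusted p under 0.05, and the G2/M list had 0.03 with 0 of 54 called by edgeR or DESeq2 and 1 at an unadjusted p under 0.05. Both unadjusted calls were higher, and over all genes 0.0928% were called higher by edgeR, 0.921% by DESeq2 and 4.45% at an unadjusted p under 0.05. Without P10 baseline replicate 1 the medians were 0.25 for S phase and 0.43 for G2/M, and without resected replicate 3 they were 0.26 and 0.28. Cdk1, the mitotic kinase, was at 51.1, 29.96 and 24.8 CPM at baseline and 42.5, 51.5 and 16.2 CPM after resection, and Ccnb1, a cyclin that activates it, at 17.5, 5.62 and 7.301 CPM and 12.03, 26.2 and 12.97 CPM. The groups overlapped for both genes, and sham libraries held 10.5, 27.7 and 11.6 CPM of Cdk1. The cyclin gene Ccna2 was at 39.98, 16.4 and 13.9 CPM at baseline and 31.8, 43.9 and 17.6 CPM after resection. Ccnb2, another cyclin gene, was at 24.3, 29 and 34.04 CPM and 21.5, 48.1 and 15.7 CPM, and both overlapped. The kinetochore gene Ndc80 was higher in each resected library than in each baseline library, at 8.95, 11.8 and 5.36 against 2.73, 4.66 and 3.75 CPM (edgeR adjusted p = 0.693). In sham minus baseline the medians were -0.45 for S phase and -0.89 for G2/M.

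Of the 29 gene lists without the cell type markers, those with the lowest medians were cholesterol synthesis and uptake (-0.76) and imprinted fetal growth (-0.38, and -0.19 without P10 baseline replicate 1). All 20 tested cholesterol genes had a fitted value below baseline, none was called by edgeR, 2 were called lower by DESeq2, 6 had an unadjusted p under 0.05 with resected lower, and 5 did not overlap, beside 0.161%, 2.03% and 4.16% of all genes. Sqle, the epoxidase of the sterol pathway, was at 14.9, 14.4 and 35.9 CPM at baseline, 5.29, 5.76 and 6.04 CPM after sham surgery and 7.31, 5.02 and 5.52 CPM after resection (log2 fold change -1.87 ± 0.44 SE, edgeR adjusted p = 0.15, DESeq2 adjusted p = 0.00395). Srebf2, the transcription factor of the pathway, was at 116, 133 and 91.1 CPM, 45, 57.7 and 51.2 CPM and 54.8, 72.5 and 47.5 CPM (log2 fold change -0.96 ± 0.26 SE, edgeR adjusted p = 0.249, DESeq2 adjusted p = 0.0167). For both genes every resected and every sham library lay below every baseline library. Of the 20 imprinted genes, 1, Dlk1, was called by edgeR, 3 were called lower by DESeq2 and 6 had an unadjusted p under 0.05, all lower, beside 0.00618%, 0.161% and 2.03% of all genes. Igf2, the fetal growth factor, was at 119.8, 72.1 and 70.4 CPM and 30.7, 65.6 and 15.8 CPM (edgeR adjusted p = 0.407), lower without overlap, with 64.5% of its exon bases in exons of other genes.

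Among the lowest-p genes of the signalling, stress and other matrix lists, none of those described here was called. Bmper, a secreted regulator of BMP ligands, was at 47.6, 56.1 and 50.4 CPM at baseline and 78.6, 94.3 and 167 CPM after resection (log2 fold change 1.14 ± 0.34 SE, edgeR adjusted p = 0.324). The ligand Bmp4 was at 74.4, 88.2 and 89.9 CPM and 69.1, 51.6 and 46.8 CPM, with resected libraries lower (log2 fold change -0.59 ± 0.26 SE, edgeR adjusted p = 0.717). Bmper was thus separate upward and Bmp4 separate downward, and sham libraries held 108, 92.4 and 82.3 CPM of Bmper, above every baseline library, and 102, 63.8 and 69.7 CPM of Bmp4, which overlapped both groups. Wnt11, a ligand of non-canonical Wnt signalling, was at 10.01, 21.9 and 23.97 CPM and 30.9, 48.4 and 36.4 CPM (log2 fold change 1.05 ± 0.35 SE, edgeR adjusted p = 0.461). Ddit3, a transcription factor of the unfolded protein response, was at 68.9, 54.95 and 55.6 CPM and 29.7, 20.02 and 21.1 CPM (log2 fold change -1.34 ± 0.44 SE, edgeR adjusted p = 0.46), with sham libraries between the groups at 38.6, 37.5 and 35.9 CPM. Adm, the vasodilator adrenomedullin, was at 91.97, 82.7 and 95.6 CPM and 123, 129 and 175 CPM (edgeR adjusted p = 0.544), and Tef, a clock-controlled transcription factor, at 214, 169 and 172 CPM and 111, 131 and 84.2 CPM (edgeR adjusted p = 0.424). The collagen Col24a1 was at 10.2, 8.61 and 11.8 CPM and 5.62, 3.69 and 4.27 CPM, with resected libraries lower and no overlap (edgeR adjusted p = 0.577). Prg4, which encodes the lubricating proteoglycan lubricin, was at 2.002, 0.696 and 0 CPM and 28.3, 1.46 and 80.6 CPM, overlapping because resected replicate 2 was low (edgeR adjusted p = 0.304, DESeq2 adjusted p = 0.00438).

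Among the remaining lists the thyroid and glucocorticoid response list had a median of 0.69 with 5 of 14 at an unadjusted p under 0.05 and resected higher, beside 4.45% of all genes, and none called. Without P10 baseline replicate 1 the median was 1.23. Mt1, a metallothionein, was at 220.3, 35.6 and 61.3 CPM and 365, 226 and 744 CPM (edgeR adjusted p = 0.461). The medians of the others were -0.10 for injury-activated fibroblast, 0.03 for TGF-beta and BMP signalling, 0.17 for Wnt modulator and target, -0.29 for immediate early and heat shock, 0.23 for glycolysis and hypoxia, 0.19 for fatty acid handling, -0.05 for secretory pathway and ER folding, 0.32 for oncofetal, 0.27 for insulin-like growth factor axis, -0.20 for circadian clock. Without P10 baseline replicate 1 the medians were 0.29 for injury-activated fibroblast and 0.27 for circadian clock, both of the opposite sign. That of TGF-beta and BMP signalling was then 0.35, beside 0.09 over all genes. Without resected replicate 3 the medians were 0.73 for oncofetal and 0.06 for injury-activated fibroblast. Of 14 injury-activated genes, 1, Timp1, was called higher by edgeR, 2 by DESeq2 and 3 at an unadjusted p under 0.05. Of 22 fatty acid genes, 1, Angptl4, was called higher by edgeR, 1 by DESeq2 and 5 at an unadjusted p under 0.05. The shares of all genes were 0.0928%, 0.921% and 4.45%. Igfbp3, a carrier of insulin-like growth factors, was at 106, 136 and 80.7 CPM and 136, 277 and 795 CPM (log2 fold change 1.9 ± 0.51 SE, edgeR adjusted p = 0.249, DESeq2 adjusted p = 0.0185), and 0.94 with an edgeR adjusted p of 1 without resected replicate 3. Klf2, a flow-responsive transcription factor counted with the immediate early genes, was at 617, 949.96 and 856 CPM and 472, 466 and 399.6 CPM, lower without overlap (edgeR adjusted p = 0.249, DESeq2 adjusted p = 0.0172), with 450.5, 478 and 479 CPM after sham surgery.

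**Figure D5:**
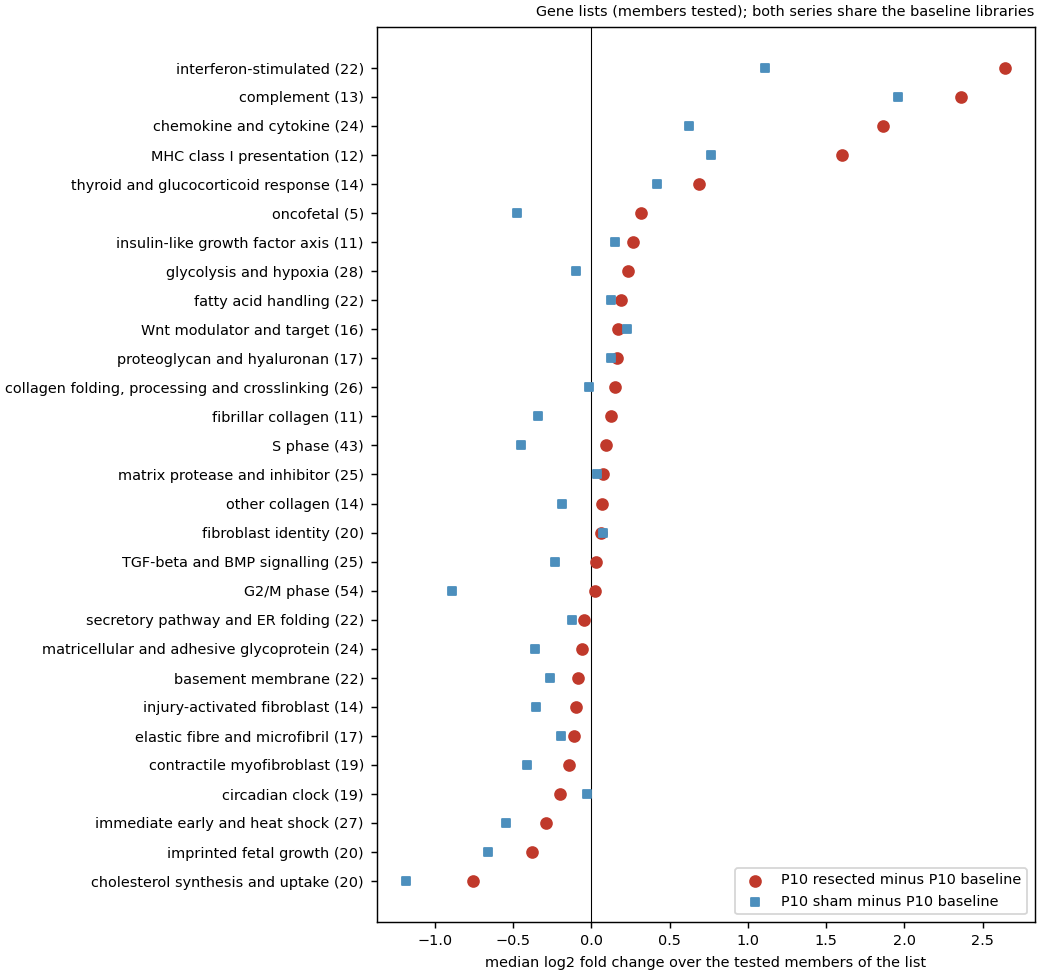
Median log2 fold change over the tested members of 29 gene lists, for P10 resected minus P10 baseline (circles) and P10 sham minus P10 baseline (squares), which share the 3 baseline libraries. The interferon-stimulated list lies at 2.64 and 1.11, the cholesterol list at -0.76 and -1.18, and the G2/M list at 0.03 and -0.89.

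Resected and sham libraries of the same age were compared directly to see where resection went beyond growth and surgery. edgeR called 0 of 16170 genes, with 661 at an unadjusted p under 0.05, and voom with sample quality weights also called 0, while DESeq2 called 39 (37 higher, 2 lower). For Hp the log2 difference from sham was 4.94 ± 1.27 SE, for Tmem176a 2.1 ± 0.50 SE and for Plac8 2.32 ± 0.68 SE (edgeR adjusted p = 0.692, 0.626 and 1). Among the genes called higher, the smallest differences from sham were those of Angptl4, Mgst1 (0.26 ± 0.46 SE), Lgmn (0.49 ± 0.26 SE), Ly6a (0.72 ± 0.70 SE) and Il33 (0.84 ± 0.44 SE), whose libraries overlapped. Cell type markers aside, the highest list medians against sham were 1.72 (interferon-stimulated), 1.1 (G2/M), 0.969 (chemokine and cytokine) and 0.877 (MHC class I presentation). The injury-activated fibroblast and S phase medians were 0.801 and 0.537, and the lowest was -0.0498 (matrix protease and inhibitor), beside 0.0198 over all genes. Summed G2/M levels overlapped, at 1374, 1575 and 1357 CPM after sham surgery and 1756, 2288 and 1368 CPM after resection. These comparisons share the resected libraries with the comparison against baseline and are not independent of it.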

How the data were processed

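The series holds bulk RNA-sequencing of GFP+ TCF21-lineage cardiac fibroblasts in 6 groups of 3 libraries. The deposited counts are whole reads per gene, which the authors made with fastp 0.20.0, STAR 2.7.0f and featureCounts (Subread 1.6.4) on GRCm38.p6 over exons without strand, as the study's methods and the submitters' processing notes state. With its default settings featureCounts does not count multi-mapping reads or those assigned to more than 1 gene, which lowers the counts of near-identical and overlapping genes.

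Groups and replicate numbers came from the sample labels. Genes with low counts were filtered by filterByExpr (minimum count 10), leaving 16170 of 55453. All 18 libraries, holding 10462737 to 22980554 counts, were fitted in edgeR 4.0.16 (R 4.3.3) with TMM scaling and the quasi-likelihood test, with Benjamini-Hochberg adjustment and a threshold of 0.05. CPM values are counts scaled to a common library total with TMM factors. DESeq2 1.42.0, limma voom 3.58.1 with sample quality weights, other scalings and filters, a replicate block, fits of the compared groups alone and fits without each library were alternatives. A Y-linked covariate and the omission of 2 libraries that stood apart were added after seeing the data. The scripts were tested on simulated data. The comparison, gene lists and tests were chosen with earlier results of these data known. Genes named in the text were the called genes with separate groups and at least 5 CPM in the higher group (up to 12 per direction), the called or, failing that, the 2 lowest-p members of each list, genes the study discusses, and the lowest-p genes of the age difference. Genes without baseline counts were compared with a floor of 3 counts over the group. Same-numbered P10 sham and baseline libraries correlated at 0.328, 0.107 and 0.125 in their deviations from the group means, and differently numbered ones at -0.269 to 0.193. Only the value of replicate 1 thus lay above that range, and the block left that comparison at 1 call. Promoter windows came from RefSeq, and gene positions from GENCODE M21 on GRCm38. A few genes are not reported here.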

Additional observations from a re-analysis of the deposited data

Results flagged for a closer look

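The change from baseline to 3 days after resection differed between P10 and P2 by the interaction term of the edgeR fit for the 8 genes described here. On the log2 scale the change at P10 exceeded that at P2 by 8.71 for Oas1a, 6.7 for Usp18, 6.61 for Isg15, 5.93 for Oasl2 and 5.87 for Rtp4. The value for Oas1a rests on 3 counts in the P10 baseline group and depends on the fit's prior count. The difference was -5.14 for Vtn, -2.02 for Pamr1 and -5.7 for Olfr558. Oasl2, a relative of the oligoadenylate synthetases, was at 142, 208 and 104 CPM at P2 baseline, 35.6, 25.7 and 18.6 CPM in P2 resected, 18.1, 7.87 and 12.1 CPM at P10 baseline and 56.3, 27.5 and 326 CPM in P10 resected libraries. Rtp4, a receptor transporter protein induced by interferon, was at 63.9, 83.2 and 59.9 CPM, 19.1, 8.42 and 12.2 CPM, 6.67, 6.26 and 9.67 CPM and 31.96, 16.1 and 204 CPM in that order. In Rtp4 transcripts 10.5% of the 75-base stretches also occur in Gm45338. The cause of these differences was not tested.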

How the results depend on the processing

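Counts of calls depended on the processing, and the cause was not tested except where fewer libraries entered the fit. For P10 resected against baseline the 16 calls became 248 with no filter on low counts, 175 with DESeq2, 65 with voom (9 of the 16 kept), 0 with the compared groups alone, 2 with the Y-linked covariate and 0 without P10 baseline replicate 1 and P10 resected replicate 3. DESeq2 size factors in edgeR gave 11 calls, all among the 16, and upper quartile scaling gave the same 16. Leaving out 1 library gave 0 to 58. For sham against baseline the 1 call became 151 with no filter and 121 with DESeq2, and 0 to 5 with 1 library left out. For resected against sham the 0 calls became 76 with no filter and 39 with DESeq2, and 0 to 5, the 5 without P10 sham replicate 2. For P2 resected against baseline the 2 calls became 151 with no filter, 104 with DESeq2, 77 with voom and 4 with the compared groups alone, and 0 to 4. For the difference between the ages the 9 calls became 193 with no filter, 122 with DESeq2, 154 with voom, 0 with the compared groups alone and 0 with the Y-linked covariate, and 0 to 36, the 36 without P10 resected replicate 2.

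With the replicate number as a block there were 11 calls for resected against baseline, 10 of them among the 16, and 1 for resected against sham. Same-numbered resected and baseline libraries correlated at 0.0694, 0.0914 and -0.0724 in their deviations, so these share only a number. The 3 uncalled genes that changed sign were Ccnb2 to 0.142 without both libraries that stood apart and to between -0.643 and 0.259 without 1 library, Cdk1 to -0.0182 with the block, to -0.125 with the Y-linked covariate and to between -0.26 and 0.426 without 1 library, and Pdgfra to between -0.215 and 0.519 without 1 library. Over the named genes and alternatives 910 values kept their direction and side of the threshold, 125 lost and 39 gained a call. Of the list medians, 86 alternative values moved by more than the replicate spread and 378 by less. Other scalings shifted the median of all genes by -0.00661 and 0.00976. Depth limits genes with few baseline counts, such as Saa3 and Emb, whose folds are known only within wide intervals or as bounds.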
